A study of Mus musculus with 27 samples.

Results

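The genes described here are the 45 genes of large-subunit ribosomal proteins (the Rpl and Rplp genes) that were taken by gene symbol from a list. Each of the 45 symbols had 1 row in a deposited RNA table of 38582 rows, and all 45 passed the filter on low values. The study examined WDR43, which belongs to the nucleolar machinery for making ribosomal RNA, in mouse embryonic stem (ES) cells kept in serum and leukemia inhibitory factor. RNA was sequenced in 2 libraries with a control short hairpin RNA (shCtl) and 2 with a hairpin against WDR43 (shWDR43), all in cells labelled wildtype, and per the header of the table these are biological replicates. RNA polymerase II (Pol II) was mapped by chromatin immunoprecipitation and sequencing (ChIP-seq) in 2 shCtl and 2 shWDR43 libraries for each of 3 forms: hypophosphorylated (hypoP, antibody 8WG16), phosphorylated at serine 5 of the C-terminal repeats (Ser5P) and phosphorylated at serine 2 (Ser2P). WDR43 was mapped with a FLAG antibody in 5 single libraries: cells with Fbio-tagged WDR43 under the solvent DMSO, DRB (an inhibitor of the kinase that lets paused Pol II go on) or actinomycin D (ActD, a DNA intercalator that stops transcription), cells labelled FB and cells labelled cFB-KI. The labels give neither the ES cell line, nor the hairpins, nor the length of the knockdown, nor the dose and time of either drug. They do not say what separates the ChIP libraries numbered 1 and 2 of a group.

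Large-subunit ribosomal proteins coat the RNA of the subunit that forms peptide bonds, and most are made in equal numbers, 1 copy per ribosome. Their genes are short and are among the most transcribed genes of dividing cells. Transcription of most of them starts within a run of pyrimidines, so that the mRNA carries a terminal oligopyrimidine (TOP) tract through which growth signals set its translation. In Pol II ChIP, Ser5P marks early transcription near the start of a gene and Ser2P rises towards its end.

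The start regions of 6 of the genes are printed because they show pyrimidine words close to where the mRNA begins. Windows from 250 bases before to 50 after the start were read from RefSeq on build GRCm38.p6, and 34 of the 45 genes had an entry. Each sequence printed below runs from 60 bases before to 30 after the start, and the capitals mark a match on the sense strand to the word CTTTCC, to its variant CTTTTC, or to the related word CTCTTC. Of 29 genes with 1 listed start, 13 had a match in that stretch and the rest had none. The genes printed are the 3 with the largest and the 3 with the smallest fall of RNA in shWDR43 among these 13. No share over other genes was taken for this shorter stretch.
Rpl14, chr9:120571457-120571546, plus strand: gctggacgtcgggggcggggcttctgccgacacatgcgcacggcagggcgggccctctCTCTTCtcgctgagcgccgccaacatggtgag
Rpl38, chr11:114668520-114668609, plus strand: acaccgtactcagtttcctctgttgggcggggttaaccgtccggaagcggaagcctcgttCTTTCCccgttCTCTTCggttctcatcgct
Rpl7a, chr2:26910747-26910836, plus strand: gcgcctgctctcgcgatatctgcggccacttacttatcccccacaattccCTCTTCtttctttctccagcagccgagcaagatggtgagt
Rpl18, chr7:45718011-45718100, plus strand: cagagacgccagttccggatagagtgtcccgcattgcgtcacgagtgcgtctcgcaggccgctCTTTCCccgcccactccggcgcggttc
Rpl4, chr9:64173327-64173416, plus strand: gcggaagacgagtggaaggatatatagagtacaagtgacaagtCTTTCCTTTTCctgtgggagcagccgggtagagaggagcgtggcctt
Rpl13a, chr7:45128716-45128805, minus strand: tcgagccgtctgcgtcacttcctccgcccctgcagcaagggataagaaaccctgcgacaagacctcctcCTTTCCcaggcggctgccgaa

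Over the whole window, 28 of the 34 genes (82.4%) held 1 of these 3 pyrimidine words in at least 1 of their listed starts. The same was true of 35.9% of the tested genes with an entry, of 37.9% of the most abundant 10% and of 36.2% of all 27025 genes in the RefSeq table. The word CCGGAAG, bound by ETS factors, stood on either strand in 41.2% of the 34 genes and in 21.9% of the tested genes. The GC box core GGGCGG stood on either strand in 67.6% of the 34 genes and in 71.9% of the tested genes. The TATA word TATAAA on the sense strand stood in 8.82% and 4.83%. The YY1 word AAGATGGC stood on either strand in 8.82% and 5.82%, and the palindromic NRF1 motif in 5.88% and 2.59%. Such matches describe letters in a window and were not tested for binding.

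The targeted gene, Wdr43, stood at 82.3 and 78.2 FPKM (a count of fragments per length of transcript, in a table whose title names spike-in RNA) in the shCtl libraries and at 21.2 and 20.7 in the shWDR43 libraries. limma gave it a log2 fold change of -1.89 ± 0.12 SE (Benjamini-Hochberg adjusted p = 0.000751). Values carry 1 decimal and no reads can be recovered, so the depth of all libraries is unknown. The summed FPKM was 1015230 and 1040750 in shCtl and 687051 and 681178 in shWDR43, and its 4 most abundant rows held between 40.3% and 48.8% of it. All 8 ES cell markers were at 1 FPKM or more in every library. Their sum was 4968 and 5075 FPKM in shCtl and 2705 and 2535 in shWDR43. Of 14 fibroblast markers, for cells that can serve as feeders, 9 or 10 reached 1 FPKM, with sums of 158 to 215 FPKM and with Dcn and Lum listed at 0 in every library. Of the 10 that were tested, 3 were called higher, up to Tagln at a log2 fold change of 1.32, and 2 lower, down to Thy1 at -1.35, with a median of 0.49. Their part in the results below was not tested. In bulk samples, fewer cells and less RNA per cell cannot be told apart.

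All 45 genes had less RNA in shWDR43, and each of them passed the test with both libraries of each group and the filter on low values. With no filter 1 of them passed, and with any 1 library left out none did, although 44 or 45 then had an unadjusted p under 0.05 (limma). Fold changes are given as log2 of (FPKM + 1), a gene was called at an adjusted p under 0.05, and 42.7% of the 12452 tested genes were called lower and 6.1% higher. Most highly expressed genes were called lower too: 84.9% in the most abundant 10% of tested genes (1246 genes with a mean of at least 52.4 FPKM), which held 44 of the 45. The median log2 fold change of the 45 genes was -0.87, with quartiles of -0.96 and -0.76. It was -0.39 over all tested genes and -0.79 over the most abundant 10%. Every one of the 45 lay below the median of all tested genes, and 32 lay below that of the most abundant 10%. In all 45 both shWDR43 libraries were below both shCtl libraries, as in 63.6% of the tested genes. The median gene stood at 1495 and 1578 FPKM in the 2 shCtl libraries and at 889.6 and 844 in the 2 shWDR43 libraries, and the number at 1000 FPKM or more went from 35 and 36 to 19 and 17.

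**Figure D1:**
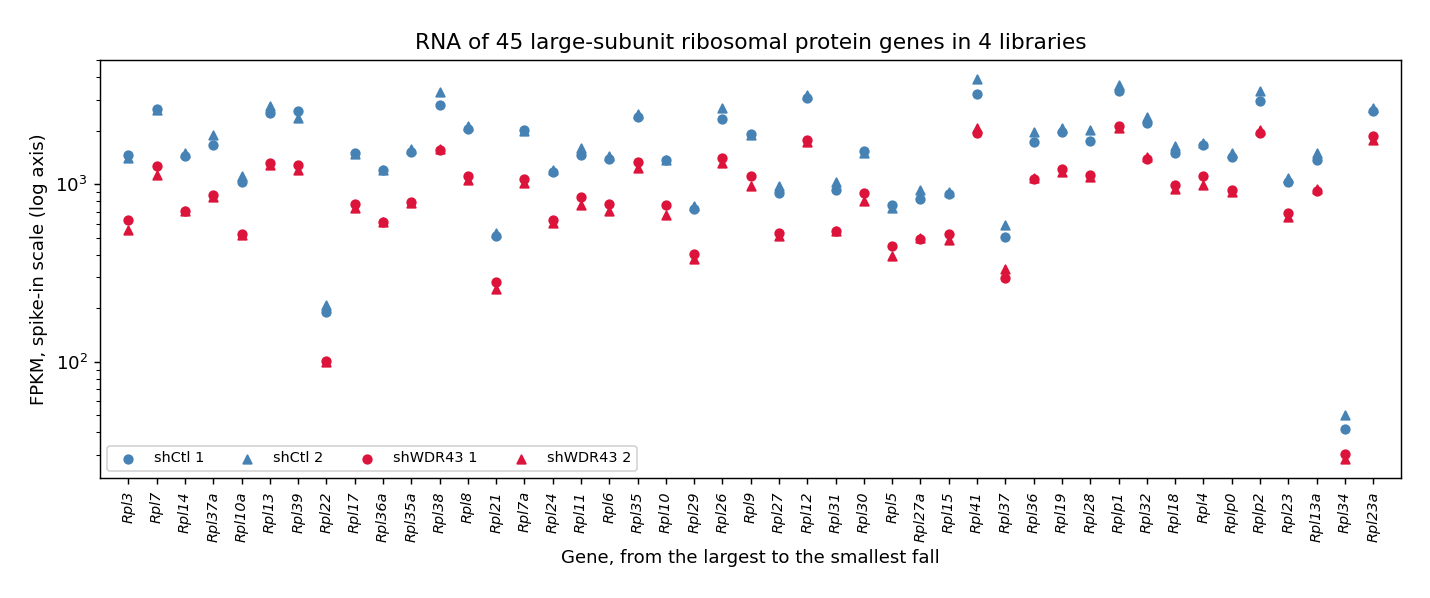
RNA level (FPKM, log axis) of each of the 45 genes in the 2 shCtl (blue) and 2 shWDR43 (red) libraries, with circles for replicate 1, triangles for replicate 2 and genes in order of their fall. Both red points lie below both blue points in all 45 genes, from Rpl3 at a log2 fold change of -1.28 to Rpl23a at -0.53.

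The 3 genes of proteins that reach into the peptidyl transferase centre had a median log2 fold change of -0.95. Rpl3, whose protein is an early and essential part of that centre, had 1452 and 1404 FPKM in the shCtl libraries and 625 and 549 in the knockdown. This was the largest fall of the 45, 2.43-fold (limma, log2 fold change -1.28 ± 0.11 SE, adjusted p = 0.00102). Rpl8 had 2049 and 2142 FPKM in the shCtl libraries and 1113 and 1053 in the knockdown. Rpl10, whose protein joins the subunit late in the cytoplasm, had 1362 and 1368 FPKM in the controls and 766 and 672 in the knockdown. Rpl8 and Rpl10 had nearly equal log2 fold changes of -0.95 ± 0.09 and -0.93 ± 0.10 (SE, n = 2 libraries per group). The shCtl and shWDR43 ranges were far apart for all 3 genes.

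Rpl5 and Rpl11 encode the proteins that carry 5S ribosomal RNA into the subunit and that, when free, bind the p53 inhibitor MDM2. Rpl5 had 761.5 and 738.5 FPKM in the shCtl libraries and 447 and 395 in the knockdown, a log2 fold change of -0.83 ± 0.11 (SE). Rpl11 had 1468 and 1598 FPKM in the shCtl libraries and 845 and 760.5 in the knockdown, a log2 fold change of -0.93 ± 0.10 (SE). The pair did not differ from each other by more than these errors. Both lay close to the median of the 45 genes. The 10 genes on a list of those mutated in Diamond-Blackfan anemia, an inherited failure of red cell production, had a median of -0.86 and all were called lower, from Rpl35a at -0.97 to Rpl18 at -0.70.

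The stalk genes had the smallest median fall of the 6 role groups, -0.74 on the log2 scale. Rplp0, Rplp1 and Rplp2 encode the P stalk that recruits the GTPases of translation. Rplp0 had 1417 and 1499 FPKM in the shCtl libraries and 929.8 and 902 in the knockdown, Rplp1 at 3357 and 3625 against 2117 and 2069.7, and Rplp2 at 2935 and 3335 against 1942 and 2021. Their log2 fold changes of -0.67 ± 0.09, -0.74 ± 0.09 and -0.66 ± 0.10 (SE) were all weaker than the median of the 45. Rpl12, whose protein sits at the base of that stalk, had 3077 and 3187 FPKM in the shCtl libraries and 1769 and 1721 in the knockdown, a log2 fold change of -0.84. Rpl10a, which forms the other stalk, where spent tRNA leaves, had 1023 and 1108 FPKM in the shCtl libraries and 527 and 519.6 in the knockdown. Its log2 fold change of -1.02 ± 0.10 (SE) set it apart from the P stalk genes by more than their summed errors, a difference that was not tested.

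The 8 genes of proteins around the exit of the nascent chain tunnel spanned the widest range of any role group after the unsorted rest, from Rpl39 at -1.0 to Rpl23a at -0.53, with a median of -0.86. Rpl23a, part of the docking site for the signal recognition particle, had the smallest fall of the 45. It had 2588 and 2693 FPKM in the shCtl libraries and 1867 and 1785 in the knockdown, 1.45-fold lower (log2 fold change -0.53 ± 0.09 SE, limma, adjusted p = 0.00366). The 4 genes of proteins in bridges to the small subunit had a median of -0.83. Rpl23 had the least fall among them, from 1026 and 1085 FPKM to 692 and 656. Rpl41, which encodes a very short peptide, had the highest mean level in shCtl of the 45 genes. Its 3204 and 3924 FPKM in shCtl became 1943 and 2078 in shWDR43, and its shCtl libraries were farther apart than those of most genes.

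The other 23 genes had a median of -0.91. Rpl7 had 2647 and 2624 FPKM in the shCtl libraries and 1259 and 1132 in the knockdown, the second largest fall (log2 fold change -1.14 ± 0.10 SE). Rpl14 went from 1448 and 1507 to 707 and 709.7 FPKM, and Rpl37a from 1669 and 1905 to 867 and 844. These and Rpl3, Rpl10a and Rpl13 were the 6 genes that fell by 2-fold or more. At the other end, Rpl13a, whose protein also takes part in translational silencing of inflammatory mRNAs, had 1369.6 and 1508 FPKM in the shCtl libraries and 912 and 938 in the knockdown, a log2 fold change of -0.64 ± 0.10 (SE). The low end of the level scale held Rpl22, with 190 and 210 FPKM falling to 101 and 100, and Rpl21, with 511 and 529 falling to 282 and 256. Their log2 fold changes were -0.98 and -0.95. The lowest level of all was that of the row Rpl34, with the second smallest fall on the scale of log2 of (FPKM + 1), -0.63. By mean FPKM Rpl34 was 1.57-fold lower, a larger fall than the 1.56-fold of Rpl13a.

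**Figure D2:**
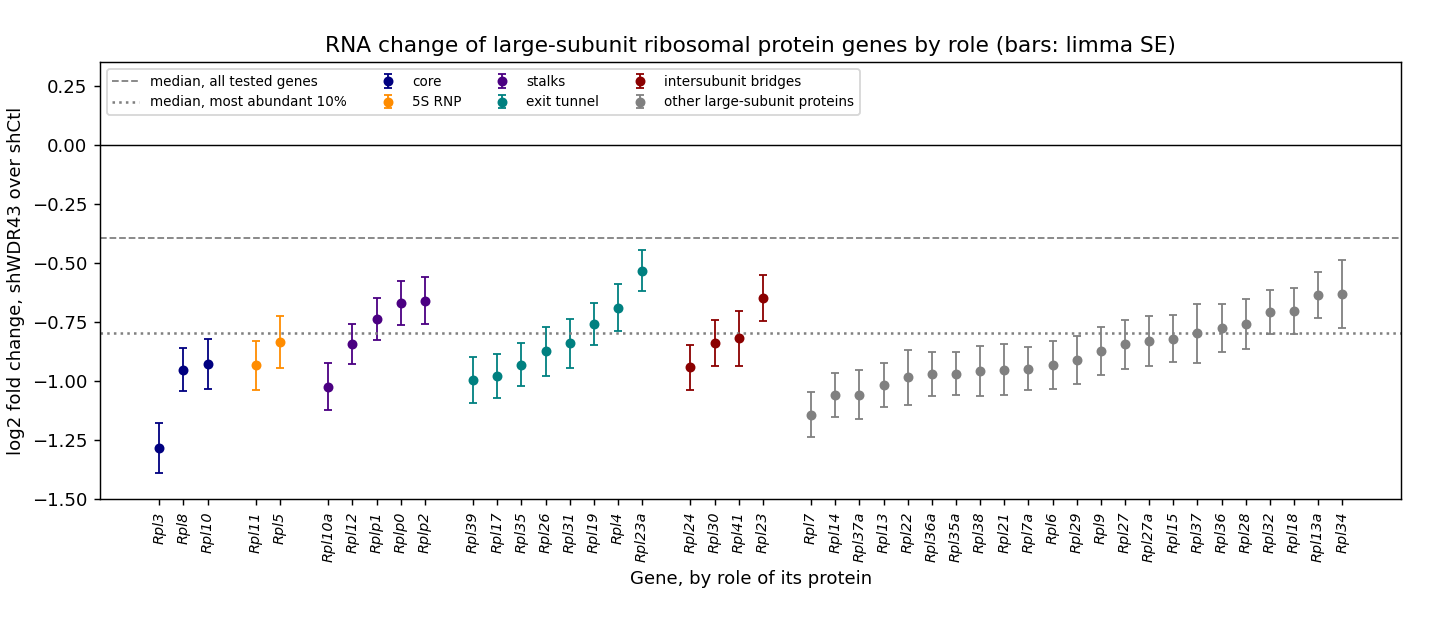
log2 fold change (shWDR43 over shCtl, on log2 of FPKM + 1) of the 45 genes, coloured by role, with limma's SE as bars and dashed and dotted lines at the medians of all tested genes (-0.39) and of the most abundant 10% (-0.79). All 45 lie below the dashed line, and the role groups overlap one another.

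Some rows cannot be read as 1 gene. Rpl34 had only 41.6 and 50.4 FPKM in shCtl and 30.3 and 28.2 in shWDR43, but its locus shared 3472 bp with a row named Rpl34-ps1, which held 2119 and 1984 FPKM in shCtl and 1238 and 1146 in shWDR43. How the deposited values split reads between the 2 rows is unknown, and the row Rpl34-ps1 had a log2 fold change of -0.78 against -0.63 for Rpl34. The locus of Rpl31 shared 414 bp with Tbc1d8, at 3.9 and 2.8 FPKM in shCtl and 10.2 and 7.7 in shWDR43. The locus of Rpl5 shared 964 bp with Fam69a, which stayed under 4 FPKM in all libraries. Counting was not stated to use strand. Processed copies of ribosomal protein genes are common in mammalian genomes, so reads of all 45 genes may have been shared with near-identical copies.

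The genes differed from one another in their fall by more than the libraries of a group differed. The SD of the log2 fold change over the 45 genes was 0.15, against 0.094 for the difference between the shCtl libraries and 0.079 for that between the shWDR43 libraries. Differences taken from separate libraries ordered the genes in a related way: the difference of the libraries numbered 1 and that of the libraries numbered 2 had a Pearson's r of 0.89 over the 45 genes, and the crossed differences an r of 0.60. The 45 points of each correlation come from the same 4 libraries. The order of levels stayed nearly as it was, with Spearman's rho of 0.98 between the mean levels in shCtl and shWDR43. The fall had no relation to level (rho 0.02) or to locus length (rho 0.01). Without Rpl34, the most abundant of the genes had 17.8 times the mean FPKM of the least abundant one in shCtl.

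The size of the fall rests on the deposited scale. With each library centred on its median, a shift of 0.33 in the log2 fold change, the median of the 45 genes was -0.54 and all stayed below 0. Then 41 of the 45 were called lower, against 20.9% of the tested genes, and Rpl13a, Rpl23a, Rpl34 and Rplp2 no longer passed. That 20.9% is not a share among genes of like abundance. Of the 45 genes, 44 were among the 1246 most abundant tested genes, of which 84.9% were called lower before centring. Their median was then -0.79 against -0.87 for the 45, and centring shifts every gene equally. The share of these 1246 genes called lower after centring was not taken. A measure within each library gave the same direction. The 45 genes made up 7.30% and 7.58% of the summed FPKM in the shCtl libraries and 6.26% and 6.09% in the shWDR43 libraries. The groups did not overlap (mean 7.44 ± 0.20% against 6.18 ± 0.12%, SD, n = 2 each). The exact two-sided permutation test gave p = 0.333, the smallest that 2 against 2 libraries allow.

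Other genes of ribosomes and their assembly were lower too. Of 8 large-subunit genes outside the 45, 7 were tested and all 7 were called lower, with a median of -1.0. The largest fall among them was that of Rpl22l1, a paralog of Rpl22, at -1.79. Rpl22l1 had 529 and 518 FPKM in the shCtl libraries and 144 and 157 in the knockdown, a larger fall than that of any of the 45. All 30 tested small-subunit genes were called lower, with a median of -0.76, from Rps24 at -1.22 to Rps19 at -0.46. Of 53 factors that assemble the large subunit, 48 were called lower and none higher (median -0.78), from Gnl3 at -1.22 to Urb1 at -0.21, which did not pass. Of 18 other translation genes with TOP mRNAs, 17 were called lower and none higher (median -0.94), from Nap1l1 at -1.40 to Eef2 at -0.25, which did not pass. All of these medians lay below the -0.39 of all tested genes, of which 42.7% were called lower. Those of the small-subunit genes and the assembly factors lay just above the -0.79 of the most abundant 10%, of which 84.9% were called lower. The differences between the lists were not tested.

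WDR43 peaks lay at nearly all of the 45 loci. A gene was counted when at least 1 peak touched its locus widened by 1 kb on each side. The FB library had a peak at 44 of the 45 (84.2% of tested genes), the cFB-KI library at 38 (80.4%) and the DMSO library at 40 (73.3%). These are shares of 97.8%, 84.4% and 88.9% of the 45 genes, against 91.3%, 86.1% and 80.7% in the most abundant 10%. Rpl10 had a peak in none of the 3 libraries. Rpl13a, Rpl32 and Rpl39 had one only in FB, and Rpl6 had one in FB and cFB-KI but not under DMSO. The peaks sat at the starts, as they did at most tested genes. Strand was taken from RefSeq for 34 genes. Of these, 31 had an FB peak within 500 bp of the 5′ end of the locus. The same held for 82.8% of tested genes and 92.5% of the most abundant 10%. A cFB-KI peak lay there at 27 of the 34 (82.2% and 88.4%) and a DMSO peak at 28 (67% and 78.7%). Only 4 of the 34 had an FB peak within 500 bp of the 3′ end (5.51% of tested genes). Under DMSO the peaks at these genes were 461 bp wide at the median, against 236 bp for the whole list, and their best peak stood at a median percentile of 82.9 of the authors' scores in that list. That percentile was 83.0 in FB and 58.5 in cFB-KI. The highest scores among the 45 genes were at Rpl9 in FB (741), Rpl7 in cFB-KI (267) and Rpl37a under DMSO (341). The cFB-KI peak counted for Rpl7 covered 0 bp of its locus and touched only the added 1 kb.

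DRB and ActD left few or no WDR43 peaks at these loci. Under DRB 10 of the 45 genes had a peak (12.8% of tested genes, 17.9% of the most abundant 10%). By score these were Rpl31 (75.2), Rpl13 (67.6), Rpl7a (59.7), Rpl10a (57.9), Rpl9 (55.8), Rpl38 (54.4), Rpl19 (53.4), Rpl22 (52.8), Rpl4 (52.1) and Rpl23 (50.8), all near the lowest deposited score of 50. The peaks counted for Rpl7a and Rpl4 covered 0 bp of their loci and touched only the added 1 kb. Other tested rows lie within 1 kb of both loci, and to which gene these peaks belong was not tested. Under ActD none of the 45 genes had a peak (0.835% of tested genes). The lists themselves were shorter, with 31189 peaks under DMSO, 4426 under DRB and 407 under ActD. With 1 library per condition and unknown depth there is no test of these differences, and the part of depth in them was not tested.

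**Figure D3:**
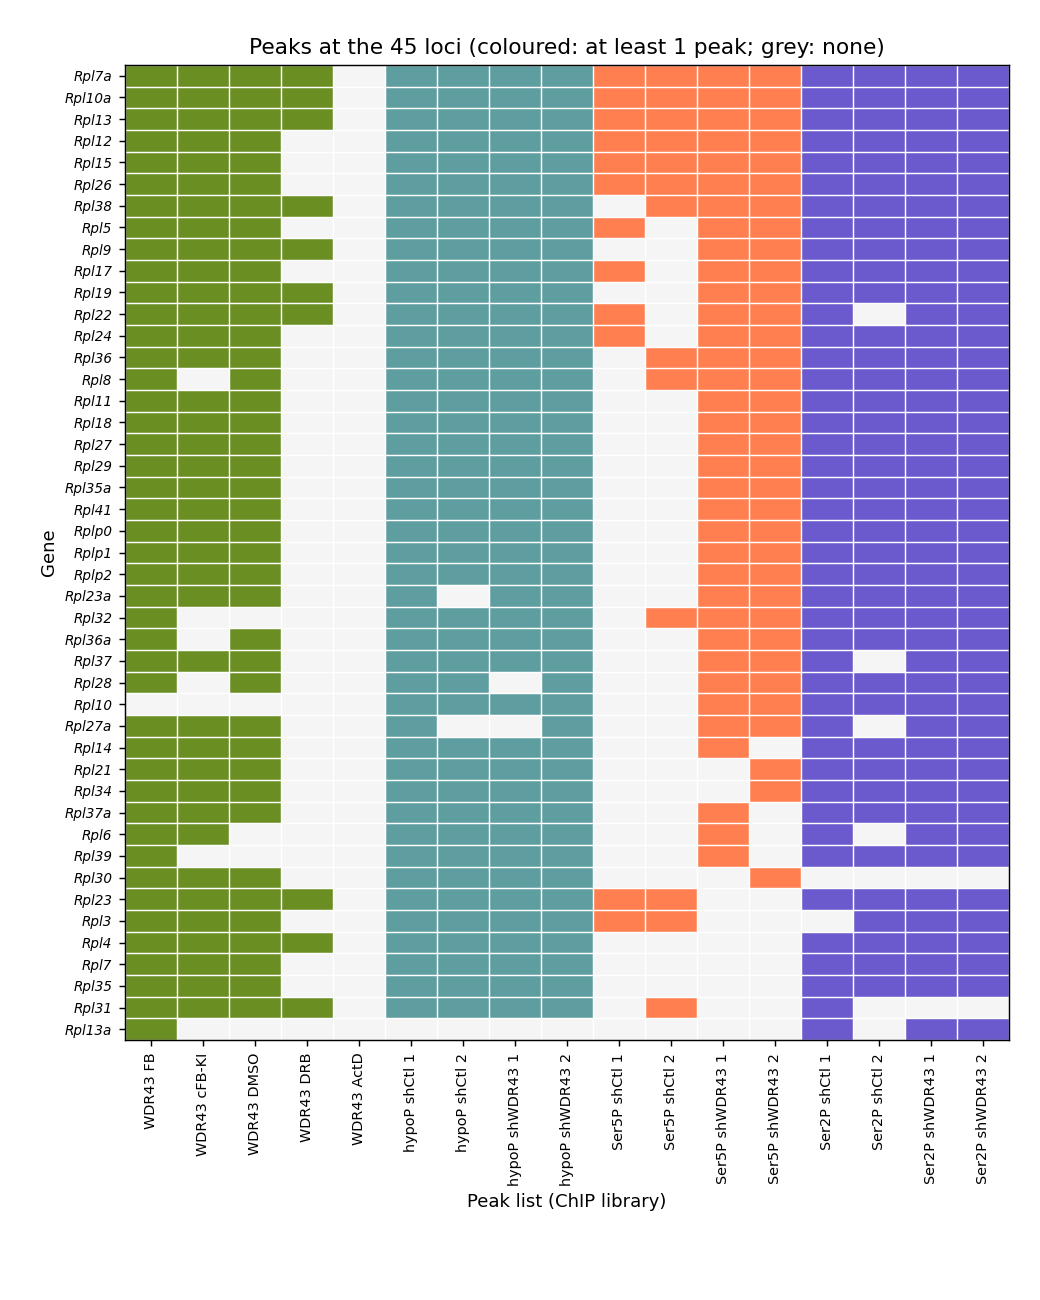
Presence (coloured) or absence (grey) of a peak at each of the 45 loci, widened by 1 kb, in the 5 WDR43 lists (green) and the 12 Pol II lists (blue hypoP, orange Ser5P, purple Ser2P). The hypoP and Ser2P columns are nearly full, while the Ser5P columns fill from 12 and 13 genes in shCtl to 35 and 34 in shWDR43.

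Hypophosphorylated Pol II was found at nearly all of the genes with or without the knockdown. The shCtl libraries had a hypoP peak at 44 and 42 of the 45 genes (83.8% and 83.7% of tested genes) and the shWDR43 libraries at 42 and 44 (89.2% and 87.1%). Rpl13a had no hypoP peak in any library, although its RNA stood above 900 FPKM throughout. In each group 42 genes had a peak in both libraries (82.3% of tested genes in shCtl and 86.3% in shWDR43). No gene gained a peak in both libraries (2.67% of tested genes did) or lost it (0.249%). The peaks covered a median of 50.6% and 51.7% of the locus in shCtl and 47.0% and 46.3% in shWDR43. The shWDR43 values lay slightly below the shCtl values, with no overlap (exact two-sided permutation test p = 0.333, the smallest possible).

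Ser5P peaks differed between the groups in number and in shape. The shCtl libraries had a Ser5P peak at 12 and 13 of the 45 genes (10.5% and 13.4% of tested genes), and the shWDR43 libraries at 35 and 34 (31% and 35.7%). In the most abundant 10% the shares went from 18.6% and 22.6% to 46.5% and 55.0%. In both libraries of a group, 8 genes had a peak in shCtl (4.22%) and 31 in shWDR43 (21.2%). A gain meant a peak in both shWDR43 libraries and in no shCtl library. It was seen at 17 genes (11.4% of tested genes, 18.6% of the most abundant 10%). The 10 with the highest scores were Rpl41 (447), Rpl10 (158), Rplp1 (158), Rpl29 (118), Rpl18 (117), Rpl9 (110), Rpl23a (103), Rpl19 (99.8), Rplp0 (97.8) and Rpl36a (89.8). Of the 17, Rpl36a and Rpl35a had 0 bp of the locus covered in the shWDR43 library numbered 1. Another tested row lies within 1 kb of each of these loci. Rpl3 and Rpl23, the genes with the largest and one of the smallest falls of RNA, had peaks in both shCtl libraries and none in shWDR43 (0.321% of tested genes). Rpl4, Rpl7, Rpl13a, Rpl31 and Rpl35 also had none in shWDR43.

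In shWDR43 the Ser5P peaks covered at least 50% of the locus at 26 of the 45 genes in each library, against 1 and 0 genes in shCtl. Over all tested genes the shares were 2.02% and 2.24% in shWDR43 and 0.514% and 0.57% in shCtl. In shWDR43 they were 13.3% and 15.5% among 503 abundant genes with loci no longer than the longest of the 45, ribosomal protein genes left out. Small-subunit genes had similar counts in shWDR43, 17 and 20 of 30. The median width of Ser5P peaks at the 45 genes was 1096 and 1005 bp in the shCtl libraries and 4530 and 3385 bp in the shWDR43 libraries, while over the whole lists it was 651 and 674 bp against 838 and 827 bp. No gene of the 45 had a Ser5P peak of 3 kb or more in shCtl (0.0803% and 0.0723% of tested genes). In shWDR43 26 and 22 of the 45 had one (2.12% and 2.25%), as did 15 and 18 of the 30 small-subunit genes. At the 45 genes the peaks covered a median of 0% of the locus in both shCtl libraries and of 88.1% and 68.9% in the shWDR43 libraries. The summed length of the 45 loci under Ser5P peaks was 8.89 and 9.56 kb in shCtl and 73.3 and 71.6 kb in shWDR43. The groups were far apart in each of these measures, and the exact two-sided permutation test of the coverage gave p = 0.333, the smallest that this design allows.

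At part of the genes the Ser5P peaks reached the 3′ end. Of the 34 genes with strand, 9 and 9 had a Ser5P peak within 500 bp of the 5′ end in shCtl (8.99% and 11.6% of tested genes), and 21 and 21 in shWDR43 (28% and 33.3%). Within 500 bp of the 3′ end none had one in shCtl (0.289% and 0.386%), and 22 and 18 had one in shWDR43 (2.99% and 3.11%). The loci are short, with a median of 3139 bp against 17994 bp for tested genes, which brings both ends within reach of 1 peak. Among 503 genes of the most abundant 10% with loci no longer than that of the longest of the 45 and no ribosomal protein gene among them, 14.5% and 16.6% of those with strand had a Ser5P peak at the 3′ end in shWDR43. The median locus of these 503 was 4153 bp, and they were not matched to the 45 in RNA level. The share of the large-subunit genes was 64.7% and 52.9%, and that of 22 small-subunit genes with strand 59.1% and 54.5%. These shares were set side by side after the data were seen and were not tested against each other. Another tested row lies within 1 kb of 15 of the 45 loci. In the 30 genes with no such row the median coverage was 63.9% and 45.9% in shWDR43 and 0% in both shCtl libraries.

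**Figure D4:**
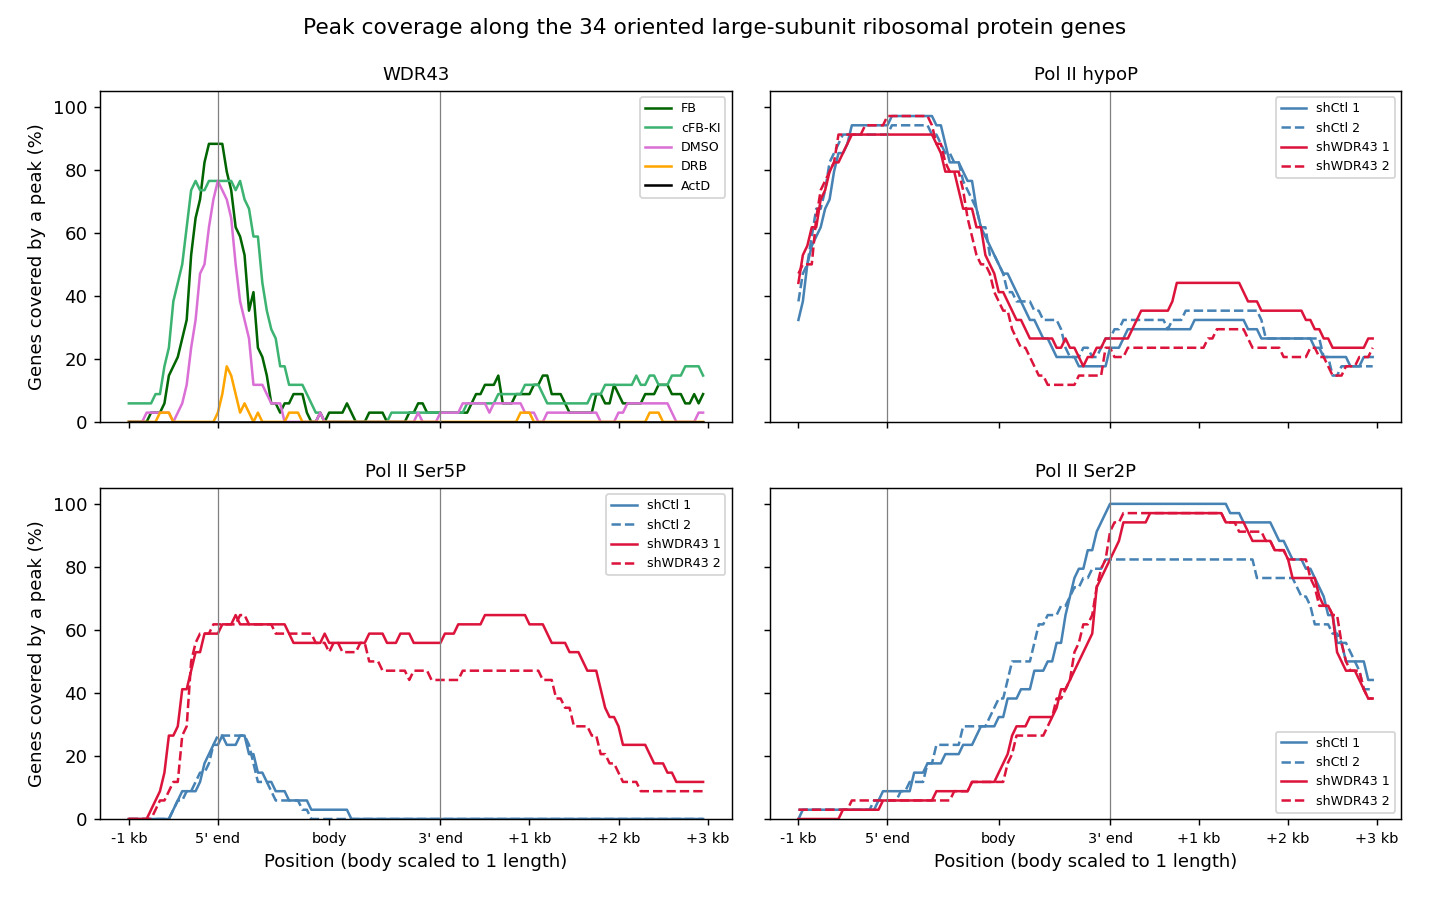
Share (%) of the 34 genes with strand that are covered by a peak at each position, from 1 kb before the 5′ end through the body, scaled to 1 length, to 3 kb past the 3′ end, for each library of WDR43, hypoP, Ser5P and Ser2P. Ser5P coverage peaks at 26.5% near the 5′ end in both shCtl libraries. In both shWDR43 libraries its highest value is 64.7%, not placed here at either end, and their curves stay above the shCtl curves through the body and past the 3′ end.

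Of the 8 genes with a Ser5P peak in both shCtl libraries, 6 kept one in both shWDR43 libraries, and it was wider in each of the 6. At Rpl10a the peak was 1265 and 1405 bp wide in shCtl and 4862 and 4824 bp in shWDR43, where it covered the whole locus and its score stood at percentiles 97.9 and 98.1 of the lists. At Rpl12 the widths were 1921 and 870 bp against 5256 and 4660 bp, and at Rpl7a 1293 and 925 bp against 4939 and 4721 bp. Rpl10a, Rpl12 and Rpl7a thus lay under single peaks that took in more than their own locus. Another tested row lies within 1 kb of each of these loci and of Rpl15, but not of Rpl13 or Rpl26. The part of such neighbours in the widths was not tested. At Rpl13 the widths were 632 and 1163 bp against 4819 and 4864 bp, at Rpl15 1003 and 989 bp against 5233 and 3249 bp, and at Rpl26 769 and 512 bp against 3301 and 3521 bp. Among the genes without a shCtl peak, Rplp1 lay under peaks of 5046 and 5516 bp and Rpl10 under peaks of 4020 and 3963 bp in shWDR43. Rplp0 kept to its start, with peaks of 2672 and 2425 bp over 49.3% and 49.5% of the locus. Rpl24 differed from these: its shCtl peak of 611 bp lay near the 5′ end in 1 library, and its shWDR43 peaks of 3624 and 3114 bp lay beyond the 3′ end and covered none of the locus.

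The number of Ser5P peaks in the whole lists was 1879 and 2520 in shCtl against 6535 and 7589 in shWDR43. The depth of these libraries is unknown, and its part in the number and width of Ser5P peaks was not tested. Scores at the 45 genes were low in shCtl, with a median of 60.4 and 62.8, and higher in shWDR43, with 98.8 and 91.0. With only peaks of a score of at least 100 kept, 0 and 1 genes had a Ser5P peak in shCtl and 17 and 14 in shWDR43, and 9 and 8 of the genes with strand had one at the 3′ end in shWDR43.

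Ser2P peaks lay at the other end of the genes and were found at most of them in both groups. The shCtl libraries had a Ser2P peak at 43 and 38 of the 45 genes (27.8% and 30.2% of tested genes, 55.0% and 55.3% of the most abundant 10%), and both shWDR43 libraries at 43 (25.2% and 25.3%). In both libraries of a group, 37 genes had one in shCtl (22.5%) and 43 in shWDR43 (19.9%), and none was gained (1.3%) or lost (3.06%) by that rule. Rpl30 had none in any library, and Rpl31 had one only in the shCtl library numbered 1. The peaks sat at the 3′ ends, with 34 and 28 of the 34 genes in shCtl (19.7% and 21.8% of tested genes) and 33 and 33 in shWDR43 (15.7% and 16.1%). Within the loci they covered less in shWDR43: the median coverage was 29.0% and 39.8% in shCtl and 12.7% and 15.2% in shWDR43, and the summed length under peaks was 53.4 and 61.8 kb against 37.7 and 36.9 kb. The groups did not overlap in either measure (exact two-sided permutation test p = 0.333 for each). The centre of the peaks lay a median of 881 and 563 bp past the 3′ end in shCtl and 1040 and 1048 bp past it in shWDR43. Rpl4 is an example, with 66.3% and 50.1% of its locus under Ser2P peaks in shCtl and 13.6% and 15.5% in shWDR43. Rpl10a stayed covered over its whole length in all 4 libraries. The median width over the whole lists was 1919 and 2018 bp in shCtl and 1660 and 1683 bp in shWDR43, and the part of depth in this difference was not tested.

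**Figure D5:**
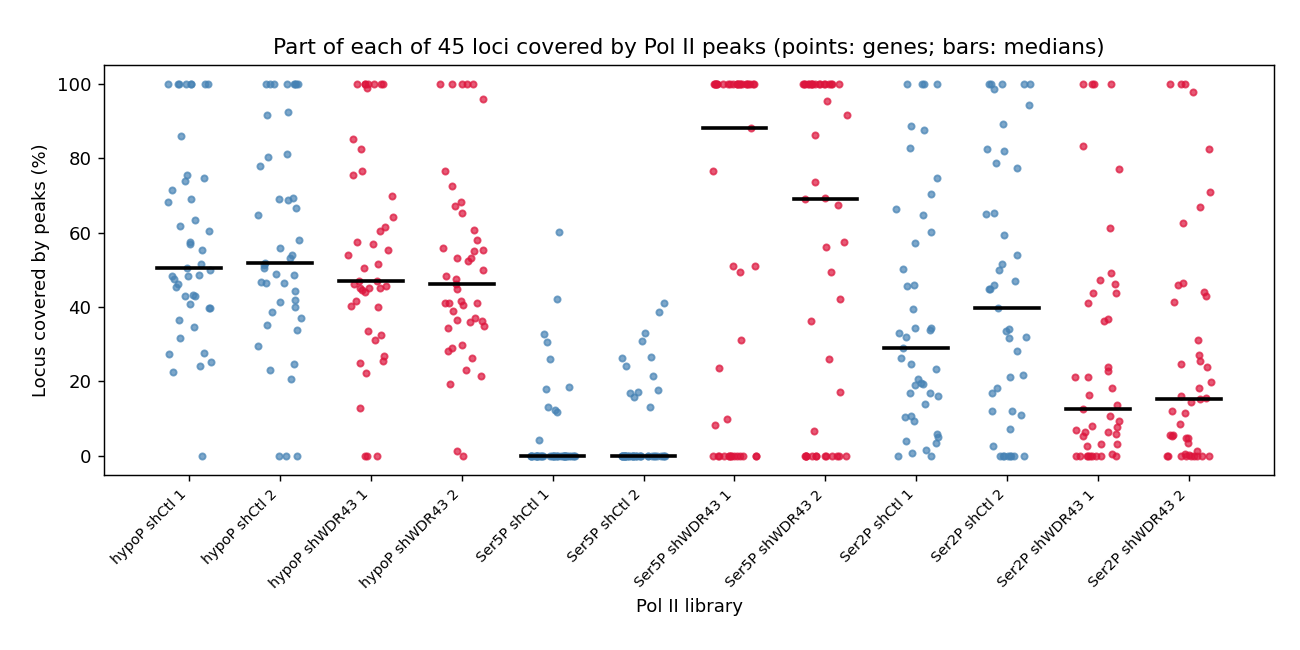
Part (%) of each of the 45 loci covered by Pol II peaks in each of the 12 libraries, with points for genes and bars for medians, blue for shCtl and red for shWDR43. The hypoP medians lie between 46.3% and 51.7%, the Ser5P medians go from 0% to 88.1% and 68.9%, and the Ser2P medians from 29.0% and 39.8% to 12.7% and 15.2%.

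The RNA change of the 45 genes is set beside their peaks here as a description. The 17 genes that gained a Ser5P peak had a median log2 fold change of -0.82 and the other 28 of -0.94. The 40 genes with a DMSO WDR43 peak had a median of -0.86 and the 5 without one of -0.93. The 10 genes with a DRB peak had a median of -0.91 and the other 35 of -0.84. These are medians of one set of genes in the same 4 libraries and carry no test. Rpl10, with no WDR43 peak in FB, cFB-KI or DMSO, and Rpl13a, with no hypoP or Ser5P peak in any library, both had less RNA in shWDR43. The same held for the other 3 genes with no DMSO peak. Rpl6 had 1392 and 1437 FPKM in shCtl against 778 and 705 in shWDR43, Rpl32 2204 and 2381 against 1380.5 and 1427, and Rpl39 2599 and 2358 against 1287 and 1197.5.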

How the data were processed

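RNA values and peaks of mouse ES cells were compared between shCtl and shWDR43. For RNA the authors deposited 1 value per row and library, read here as FPKM since the submitters' processing notes name TopHat and Cufflinks, and a signed fold change with a p-value of their own. In the authors' deposited table the fold changes of the 45 genes ran from -2.43 for Rpl3 to -1.45 for Rpl23a. For ChIP the authors deposited 17 MACS peak lists, 1 per library, with a score per peak, aligned with Bowtie2 to mm9 per the submitters' processing notes. The caller's version, its threshold and its control library are each not given in these sources. Of 27 samples in the labels, 6 were not analysed here.

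The 45 genes and all gene lists were chosen with earlier results of these data known, and the lists come from general knowledge of the ribosome. limma 3.58.1 (R 4.3.3, intensity trend) was fitted to log2(FPKM + 1) of 12452 rows with a mean of at least 1, and p-values were adjusted over all of them by the Benjamini-Hochberg method. The fit was tested on simulated data. Fold changes on this scale understate those of low rows. Named genes were Wdr43, the 5 largest and 5 smallest falls, the 3 highest and 3 lowest levels, the genes of the stalks, core and 5S particle, genes with no DMSO WDR43 peak or with a DRB peak, and up to 10 gained or lost Ser5P genes by score. Other lists are given with their highest and lowest gene, except for 1 gene that is not reported here. Rpl24, Rpl30, Rpl35 and Tbc1d8 were singled out after their values were seen. Loci were taken from the deposited table as 0-based mm9 starts. Peaks counted when 1 bp overlapped a locus widened by 1 kb. Strand came from RefSeq (GRCm38.p6) for 34 genes, so ends of mm9 loci rest on that strand. The limma p-values rest on the spread between 2 libraries per group, drawn towards a trend over all fitted rows. They therefore also depend on which rows were fitted.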

Additional observations from a re-analysis of the deposited data

How the results depend on the processing

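All 45 genes stayed lower, and each log2 fold change stayed negative, under every setting run. The count of 45 held with a pseudocount of 0.1 or 5, a minimum mean of 5, no intensity trend and the replicate block. With no filter at all, rows at 0 in every library included, 1 of the 45 was called lower, and 633 genes were lower and 277 higher, with 41 of the 45 at an unadjusted p under 0.05. With rows at 0 in every library left out, an alternative added after the data were seen, 43 of the 45 were called (all but Rpl34 and Rpl41), with 2593 genes lower and 402 higher against 5322 and 760. With centred libraries 2606 genes were lower and 1615 higher, and the median of the 45 was -0.54. With a minimum mean of 5, 472 genes were higher. Without 1 library limma called from 0 to 0 genes of the 45 and from 0 to 0 genes in either direction over the whole table. In these fits the lone library of a group is assumed to vary like the others, and the cause of the lost calls was not tested. At an unadjusted p under 0.05, from 44 to 45 of the 45 genes were then lower, with medians from -0.92 to -0.84. The replicate numbers are shared between groups, but over 12452 genes the deviations of same-numbered libraries correlated at only 0.05, so they were not taken as pairs. Over the 45 genes alone, same-numbered differences were more alike (Pearson's r 0.89) than crossed ones (0.60). A link between same-numbered libraries within the 45 genes was not tested. With the replicate block 5926 genes were lower and 840 higher, and all 45 were lower.

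Of 127 counts of genes with peaks under other settings, 106 stayed within 1.5 times. At a score of at least 100, the DRB list had 0 genes, and Ser5P had 0 and 1 in the shCtl libraries, 17 and 14 in the shWDR43 libraries, 0 and 11 in both libraries of each group, and 10 gained, while Ser2P had 2 gained. At that score Ser5P was at the 5′ end of 0 and 1 genes in shCtl and of 9 and 8 in shWDR43, and at the 3′ end of 9 and 8 in shWDR43. Counting a Ser5P peak in either shCtl library gave 17 genes. Asking for 50% of the peak to overlap gave Ser2P 21 and 23 genes in shCtl and 18 and 18 in shWDR43. A 250 bp window put Ser2P in the first shCtl library at the 5′ end of 3 genes. The difference in median log2 fold change between genes with and without a Ser5P gain was -0.013 at a score of at least 100. The cause of these changes was not tested. Depth is unknown for every library, so a missing peak is not a missing protein.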

Other observations

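Rpl31 stood apart in the peaks. It kept a WDR43 peak under DRB with the highest score of the 45 genes (75.2), had a Ser5P peak only in the shCtl library numbered 2, and had a Ser2P peak only in the shCtl library numbered 1. Tbc1d8, whose locus shares 414 bp with that of Rpl31, was called higher in shWDR43 (limma, log2 fold change 1.19 ± 0.19 SE, adjusted p = 0.0036).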
